A study of Homo sapiens with 62 samples.

Results

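FBLN2, TSPAN18, TPBG, PTPRE, TRPM2, SCUBE1, AXL, NGFR and SOX9 are 9 protein-coding genes that were followed here through 62 RNA sequencing libraries of 5 human cell lines. The first 6 were taken from the strongest increases in A2058 melanoma cells that lost an extra copy of chromosome arm 1q. AXL, NGFR and SOX9 were added because they mark dedifferentiated states of melanoma. All 9 names occurred once in every table, among 58735 listed genes in the A2058, HCT116, AGS and MCF10A tables and 48162 in the A2780 tables. Because these genes were picked from A2058 1q-loss against A2058 WT, values of that contrast are given as a description, without a test.

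The study removed the extra copy of a chromosome arm from cell lines and grew clones from single cells. The clones were made by ReDACT, a set of CRISPR methods, in the versions CO (CRISPR only), NS (negative selection) and TR (telomere replacement). A2058, a melanoma line, had 4 WT libraries, 4 1q-loss libraries of 2 clones, 6 7p-loss libraries of 3 clones and 4 8q-loss libraries of 2 clones, and all its loss clones were made with ReDACT-CO. HCT116, a colorectal cancer line, had 2 WT libraries and 4 8q-loss libraries of 2 clones, also ReDACT-CO. AGS, a gastric cancer line, was represented by 5 single libraries of 1q-loss clones (clones 1, 4, 6 and 7 NS, clone 11 CO), 2 TK+ clones and 1 WT library. For A2780, an ovarian cancer line, 6 libraries came from 1q-loss clones 2, 5 and 6 (all NS), 2 from TK+ cells and 2 from WT. MCF10A, a breast epithelial line, had 2 WT libraries and 8 1q-loss libraries of 4 clones (clones 1 to 3 TR, clone 4 CO), and the same numbers with hRASV12, an activated HRAS, written hRas below. TK+ libraries are from cells that still have the gained arm and hold the TK+ integrant, the insert against which NS selects. Each loss group rests on a few clones, and libraries of the same clone are not independent.

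FBLN2 encodes fibulin 2, a protein of the extracellular matrix. SCUBE1 encodes a secreted and cell-surface protein with EGF-like and CUB domains. TPBG (5T4) encodes a surface glycoprotein of trophoblast and many carcinomas that inhibits WNT/β-catenin signalling. TSPAN18 encodes a tetraspanin, a membrane protein with 4 passes, TRPM2 a calcium-permeable channel that opens with oxidative stress, and PTPRE a receptor-type tyrosine phosphatase. AXL encodes a receptor tyrosine kinase whose ligand is GAS6, NGFR the low-affinity neurotrophin receptor p75, and SOX9 a transcription factor of cartilage, neural crest and epithelial progenitors. Melanoma cells move between a melanocytic state, run by MITF and SOX10, a neural crest-like state marked by NGFR, and an undifferentiated state marked by AXL, EGFR and WNT5A. SOX9 and SOX10 tend to exclude each other in these states.

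None of the 9 genes lies on a chromosome that was targeted (1, 7 or 8). In GRCh38, FBLN2 (ENSG00000163520) spans chr3:13549131-13638422, TSPAN18 (ENSG00000157570) chr11:44726465-44932421 and TPBG (ENSG00000146242) chr6:82363206-82370828, all on the plus strand. PTPRE (ENSG00000132334) spans chr10:127907061-128085855, TRPM2 (ENSG00000142185) chr21:44350163-44443081 and AXL (ENSG00000167601) chr19:41219203-41261766, also on the plus strand. SCUBE1 (ENSG00000159307) spans chr22:43197283-43343388 on the minus strand. NGFR (ENSG00000064300) spans chr17:49495293-49515017 and SOX9 (ENSG00000125398) chr17:72121020-72126420, both on the plus strand.

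Promoter windows were available for FBLN2, TPBG, PTPRE, TRPM2 and AXL in the RefSeq promoter table (build GRCh38.p14), which did not hold TSPAN18, SCUBE1, NGFR and SOX9. These 5 genes had 14 windows there, and for each gene only the window nearest its start in the count tables was used. The 120 bases upstream of both the RefSeq start and the start in the count tables are printed to show the sequence in front of 4 genes that were low in WT and high in 1q-loss (FBLN2, TPBG, PTPRE, TRPM2) beside AXL, which was high in both. Capitals mark GC boxes (GGGCGG on either strand, overlapping matches joined). All are on the plus strand, at chr3:13549005-13549124, chr6:82362863-82362982, chr10:127906941-127907060, chr21:44350021-44350140 and chr19:41219083-41219202 in the order printed.
FBLN2: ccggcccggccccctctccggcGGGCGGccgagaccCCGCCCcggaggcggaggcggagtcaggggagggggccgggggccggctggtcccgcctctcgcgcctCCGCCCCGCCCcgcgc
TPBG: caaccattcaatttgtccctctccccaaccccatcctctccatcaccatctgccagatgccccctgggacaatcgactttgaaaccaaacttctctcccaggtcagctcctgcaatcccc
PTPRE: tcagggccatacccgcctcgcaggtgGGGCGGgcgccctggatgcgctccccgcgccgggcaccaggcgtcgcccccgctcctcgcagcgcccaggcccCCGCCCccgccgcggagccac
TRPM2: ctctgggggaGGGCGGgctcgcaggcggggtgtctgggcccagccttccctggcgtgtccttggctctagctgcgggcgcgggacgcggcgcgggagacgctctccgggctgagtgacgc
AXL: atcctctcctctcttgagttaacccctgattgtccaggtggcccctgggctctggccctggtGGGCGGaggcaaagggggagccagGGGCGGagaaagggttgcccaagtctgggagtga

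Over the whole 300-base windows (250 before to 50 after the start), GC content was 81% for FBLN2, 77% for PTPRE, 70.3% for TRPM2, 66% for AXL and 49.7% for TPBG, against a median of 58.7% over 35116 windows. FBLN2 had 43 CpG pairs and PTPRE and TRPM2 35 each, against 7 in AXL, 6 in TPBG and a median of 14. The GC box occurred 7 times in FBLN2, 3 times in PTPRE, 2 times each in TRPM2 and AXL, and not in TPBG, and 45% of all windows held it. An E-box (CACGTG) occurred once, in TRPM2, against 7.26% of all windows. The letters of an AP-1 site (TGANTCA, in 7.71% of all windows), of a TEAD site (GGAATG, 14%) and of a SOX site (ACAATG, 10.8%) were found in none of the 5 windows used, on either strand. The only matches that overlap in the 5 windows are GC boxes in FBLN2. Other windows of these genes are not described here. These are matches of letters and say nothing about binding.

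Totals per library ranged from 15042068 to 30984036 counts over the series and from 19595543 to 28622197 in A2058. Levels are counts per 1000000 (CPM) scaled by TMM within each line, and lines were scaled separately. The A2058 1q-loss libraries stood apart: over 16518 genes, their log CPM correlated with A2058 WT libraries at r = 0.890 to 0.927, against 0.949 to 0.981 for 7p-loss, 0.969 to 0.983 for 8q-loss and 0.986 to 0.991 among WT libraries. WT libraries of HCT116, AGS and MCF10A correlated with A2058 WT at 0.723 to 0.829. In that contrast 49.6% of genes were called (7638 of 15387, 25.3% as higher and 24.3% as lower, edgeR quasi-likelihood test, Benjamini-Hochberg adjusted p under 0.05).

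In A2058 1q-loss against WT, 7 of the 9 genes were higher by more than 1 on the log2 scale, against 9.31% of all tested genes, AXL was close to its WT level, and NGFR was lower. CPM of the 4 libraries did not overlap those of WT for 8 of the 9 genes, 7 higher and 1 lower, against 47.5% of all tested genes (24.4% higher, 23.1% lower). The median log2 fold change of the 9 was 7.16, the value of TPBG, against −0.00057 over all tested genes. The rule chose the genes from this contrast, so nothing is read from these counts. A description of all 9 as switched on does not hold for AXL, which was already the highest of the 9 in WT, or for NGFR.

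The matrix and secreted genes were close to 0 in WT. FBLN2 had 6, 6, 6 and 7 counts in the 4 WT libraries, and 1668 and 1742 in 1q-loss clone 1 and 1487 and 1934 in clone 2. This was 0.284 ± 0.020 CPM (SD, n = 4) in WT and 76.4 ± 6.69 in 1q-loss (SD, n = 4), a log2 fold change of 8.04 (SE 0.13). SCUBE1 had 1 count in all WT libraries together and 840, 961, 880 and 881 counts in the 1q-loss libraries. The ratio of summed, depth-scaled counts was 3413, with a 95% counting interval of 612 to 134850, so the size of the fold is poorly known while the level in 1q-loss, 40.2 ± 5.42 CPM (SD, n = 4), is not. Counting intervals here and below cover counting error only.

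The membrane genes followed the same pattern. TSPAN18 had 2, 2, 2 and 4 counts in WT and 4353, 3551, 5149 and 5127 in 1q-loss, which made it the second highest of the 9 there per kilobase of gene model (34.6 CPM per kb, after AXL at 51.4). Its log2 fold change was 10.73 (SE 0.19), and the ratio of summed counts was 1742 (95% counting interval 947 to 3633). TPBG had 17, 20, 30 and 25 counts in WT and 2788, 2954, 3345 and 4537 in 1q-loss, a log2 fold change of 7.16 (SE 0.15). PTPRE had 2, 8, 3 and 4 counts in WT and 1303, 1556, 1545 and 2035 in 1q-loss, a log2 fold change of 8.49 (SE 0.19). TRPM2, the least silent of these in WT, had 38, 37, 30 and 34 counts there and 916, 992, 1092 and 1431 in 1q-loss, a log2 fold change of 4.95 (SE 0.13). Both 1q-loss clones were high for each of these genes and no library was intermediate.

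Other annotated genes overlap 7 of the 9 (all but FBLN2 and TPBG), and reads could be shared with them, since use of the strand in counting is not given in the sources used here. TP53I11 overlaps TSPAN18 on the other strand by 46519 bases and had 70 to 87 counts in A2058 1q-loss, below the 3551 to 5149 of TSPAN18, but 1265 to 3254 counts in HCT116, above the 303 to 711 of TSPAN18 there. TRPM2-AS overlaps TRPM2 on the other strand, with 32 to 56 counts in A2058 1q-loss and 0 to 6 in WT. Within PTPRE, AL158166.1 had 31 to 59 and AL158166.2 21 to 36 counts in A2058 1q-loss. Genes that overlap SCUBE1, AXL, NGFR or SOX9 had at most 3 counts in any A2058 1q-loss library.

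The 3 markers of melanoma states did not move as a group. SOX9 was at 5.88, 9.82, 8.77 and 3.42 CPM in WT and at 28.9 and 26.1 in 1q-loss clone 1 and 17.6 and 20.6 in clone 2, a log2 fold change of 1.74 (SE 0.29). AXL was at 166, 192, 280 and 146 CPM in WT and at 254, 280, 270 and 256 in 1q-loss, and the groups overlapped (log2 fold change 0.43, SE 0.17). NGFR was at 24.1, 25.6, 73.1 and 25.7 CPM in WT and at 5.96, 6.81, 4.42 and 3.47 in 1q-loss, lower in all 4 libraries (log2 fold change −2.85, SE 0.40).

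**Figure D1:**
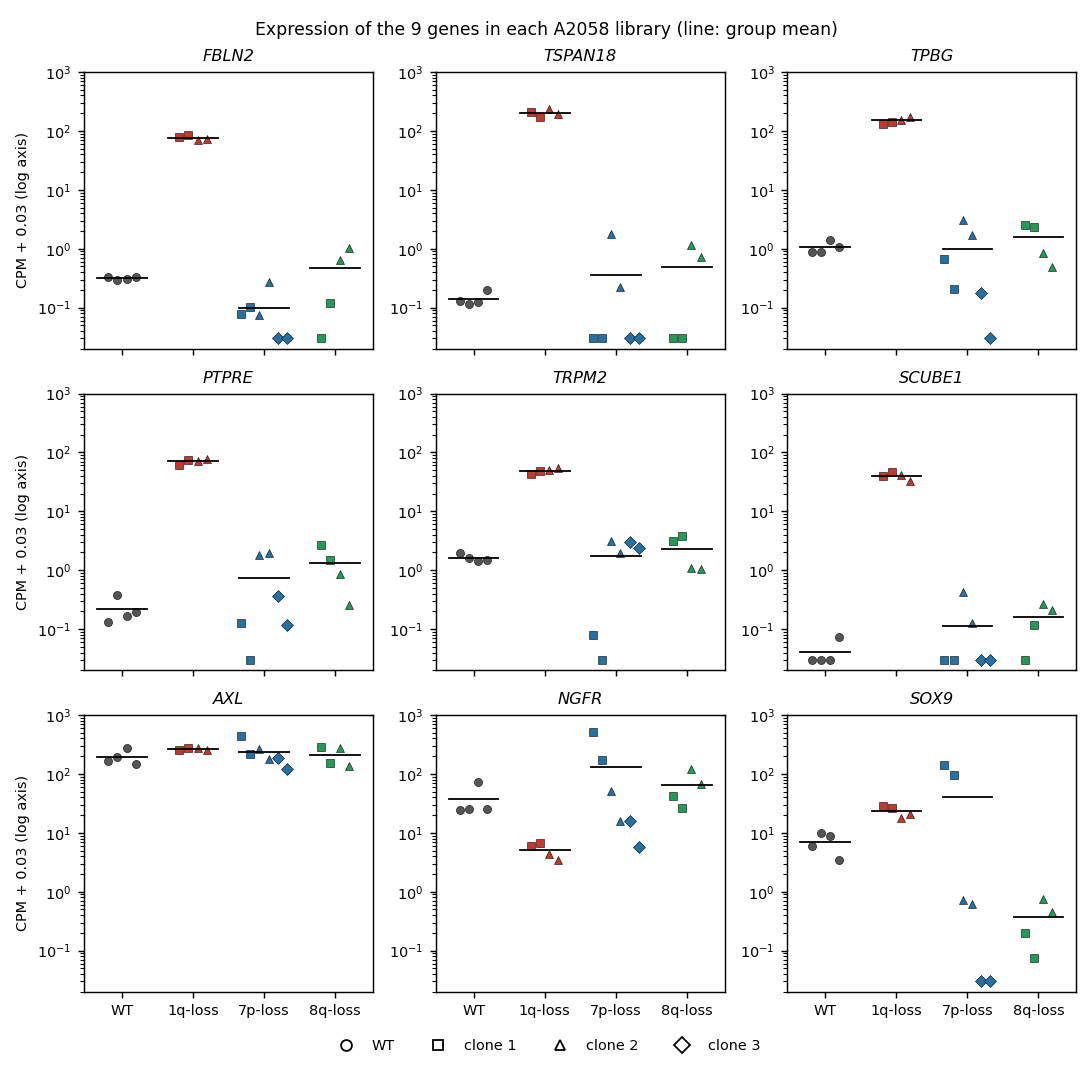
CPM (log axis, with 0.03 added so that 0 can be drawn) of the 9 genes in each of the 18 A2058 libraries. Points are libraries, shapes are clones and lines are group means. FBLN2, TSPAN18, TPBG, PTPRE, TRPM2 and SCUBE1 stand high in 1q-loss only, AXL is high in all groups, and NGFR and SOX9 spread most in 7p-loss, where clone 1 lies above the WT libraries.

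The 2 1q-loss clones were compared with each other to see how alike the genes were between them. None of the 9 was called, against 6.13% of all tested genes (edgeR, 950 of 15493), 4 were at an unadjusted p under 0.05, and DESeq2 called 0. The nearest were SOX9, lower in clone 2 (log2 fold change −0.52, SE 0.12, adjusted p = 0.0537), and NGFR, also lower in clone 2 (−0.70, SE 0.22, adjusted p = 0.125). SOX9 passed when clone 2 replicate 2 was left out (adjusted p = 0.0414), with clone 2 down to 1 library that is assumed to vary like those of clone 1. The other 7 genes differed by at most 0.25 on the log2 scale, with standard errors of 0.08 to 0.13. This compares 2 clones of 2 libraries each, not conditions. The genes were chosen in these same libraries, which favours genes that are high in both clones, so nothing is read from the count.

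Lists of genes of the same pathways or states were counted in A2058 1q-loss against WT, as genes called by edgeR of those tested, to be read beside 25.3% called higher and 24.3% called lower over all genes. The lists were chosen with this contrast known, so their counts are a description. Melanocyte lineage genes were called lower in 13 of 14 and higher in 1 of 14 (median log2 fold change −4.06). TYR, the first enzyme of melanin synthesis, was at 96.6 to 156 CPM in WT and 0 to 0.870 in 1q-loss, and PMEL, the fibril protein of melanosomes, at 777 to 1720 and 9.81 to 25.6. TRPM1, the melanocyte relative of TRPM2, was at 4.11 to 8.67 CPM in WT and 0 to 0.0477 in 1q-loss. RAB27A, which carries melanosomes to the cell edge, was the gene called higher, by 0.34. Summed CPM of the list was 2746 to 4728 in WT, 110 to 330 in 1q-loss, 1404 to 5166 in 7p-loss and 2337 to 4043 in 8q-loss. Single genes differed from this sum. TYR was also below WT in 8q-loss, at 2.08 to 6.60 CPM, and ran from 0.0965 to 1060 in 7p-loss. TRPM1 was at 1.74 to 4.31 CPM in 8q-loss and 0 to 9.52 in 7p-loss, and PMEL at 887 to 2090 and 186 to 986. Of the 14 genes, 3 were called in 8q-loss and 1 in 7p-loss, all lower, against 2.03% and 0.908% of all tested genes.

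Of the undifferentiated melanoma list of 30 genes, 19 of the 27 tested passed as higher and 2 as lower (median 0.99). EGFR, named above as a marker of that state, did not pass the filter on low counts and was not tested. WNT5A, a WNT ligand of that state, was at 0.456 to 1.69 CPM in WT and 407 to 504 in 1q-loss. INHBA, the activin A subunit, was at 0.659 to 1.82 and 24.0 to 137 CPM. SPARC, a matrix glycoprotein, and TEAD1, a YAP partner, were called lower, by −0.75 and −0.46 on the log2 scale, and TEAD4 was not called (−0.13). Of the neural crest list, which fits the state that NGFR marks, 10 of 16 were called lower and 2 higher (median −1.26). SOX10 was at 469 to 651 CPM in WT and 24.8 to 82.0 in 1q-loss, ERBB3, a neuregulin receptor, at 217 to 327 and 16.9 to 46.3, and RXRG at 5.92 to 14.6 and 0.453 to 2.76. MSX1 (2.90) and L1CAM (1.18) were called higher.

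Around AXL, 3 of 9 listed genes were called higher and 4 lower (median −0.04). Its ligand GAS6 was at 20.3 to 34.1 CPM in WT and 91.8 to 125 in 1q-loss, while PROS1, a ligand of the related receptors, was at 44.3 to 56.3 and 5.86 to 10.3. MERTK, a receptor of the same family, was at 9.30 to 13.0 and 1.30 to 2.86 CPM. Around NGFR, 3 of 10 passed as higher and 3 as lower (median −0.20). SORT1, the co-receptor for proneurotrophins, was at 273 to 331 CPM in WT and 42.6 to 69.8 in 1q-loss. Around SOX9, none of 9 passed as higher and 7 did as lower (median −1.49), among them SOX6 (−3.69), SOX8 (−2.71) and SOX10 (−3.46), while SOX9 itself was higher in all 4 libraries.

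Families of the 9 genes did not share one direction, with 7 of 27 tested relatives called higher and 12 lower (median −0.13). Among fibulins, FBLN1 was at 1.61 to 2.29 CPM in WT and 0.725 to 30.2 in 1q-loss (log2 fold change 2.72, SE 0.99), and FBLN5 at 73.9 to 94.6 and 0.905 to 9.81 (−4.11, SE 0.51). Among tetraspanins, TSPAN9 (2.86) and TSPAN5 (3.46) were called higher and TSPAN7 (−5.19) lower.

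Markers of other cell types were checked beside these values. Fibroblast markers were called higher in 5 and lower in 1 of 9 tested, with summed CPM of the 10 listed genes of 58.6 to 71.6 in WT, 179 to 314 in 1q-loss, 22.9 to 66.0 in 7p-loss and 76.3 to 114 in 8q-loss, led by COL1A1 at 107 to 246 in 1q-loss, and no gene of the list was at 0 in every 1q-loss library. Epithelial markers were called higher in 3 and lower in 1 of 4 tested, with a sum of 171 to 215 CPM in 1q-loss and 90.3 to 118 in WT over 12 genes, and GRHL2 was at 0 in every A2058 library. Leukocyte and endothelial markers were called higher in 2 and lower in 2 of 4 tested, with a sum of 11.02 to 20.3 CPM over 10 genes in 1q-loss (2.77 to 5.31 in WT), 7.10 to 17.8 of it in PECAM1. Their part in the values of the 9 genes was not tested.

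**Figure D2:**
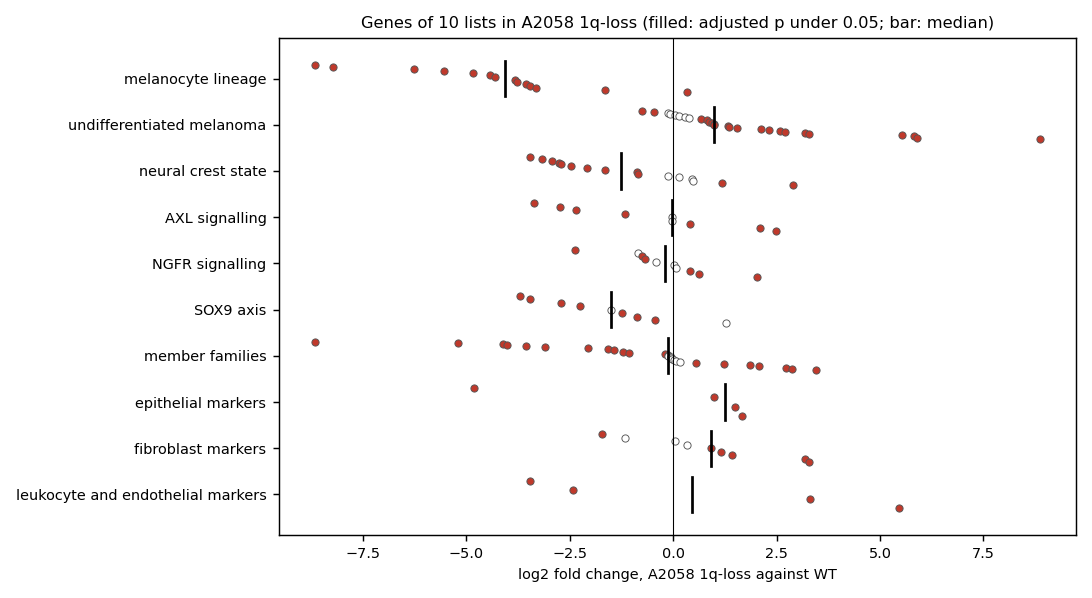
Log2 fold changes (A2058 1q-loss against WT) of the tested genes of 10 lists, 1 point per gene, filled where the adjusted p was under 0.05, with a bar at each list's median. Melanocyte lineage genes lie to the left (median −4.06) and undifferentiated melanoma genes mostly to the right (median 0.99).

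The 7p-loss and 8q-loss clones were set beside WT to see whether loss of another arm in A2058 came with the same levels. These comparisons use the WT libraries of the 1q contrast, so values are given side by side. In 7p-loss, 5 of the 9 passed the filter on low counts and none was called, against 0.908% of all tested genes (edgeR, 139 of 15305), none was at an unadjusted p under 0.05, and DESeq2 called 0. In 8q-loss, 5 of the 9 passed and 1 was called, lower, against 2.03% of all tested genes (308 of 15141) and 1.49% called lower. DESeq2 called this gene and also PTPRE, as higher (log2 fold change 2.77, adjusted p = 0.00708).

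FBLN2, TSPAN18, PTPRE and SCUBE1 did not pass the filter in either comparison, and their counts were low in every clone. Over the 10 7p-loss and 8q-loss libraries, FBLN2 reached at most 22 counts, TSPAN18 40, PTPRE 65 and SCUBE1 9, where the 1q-loss libraries had at least 1487, 3551, 1303 and 840. Within this low range, clones differed. PTPRE had 41 and 39 counts in 7p-loss clone 2 and 65 and 32 in 8q-loss clone 1, against 2 and 0 in 7p-loss clone 1 and 2 to 8 in WT. TSPAN18 had 40 and 4 counts in 7p-loss clone 2 and 23 and 15 in 8q-loss clone 2, and 0 in both libraries of 7p-loss clones 1 and 3 and 8q-loss clone 1. TPBG had 60 and 52 counts in 8q-loss clone 1 but 17 and 10 in clone 2, and 3 and 0 in 7p-loss clone 3, and passed no test (8q-loss log2 fold change 0.55, SE 0.49, adjusted p = 0.695). TRPM2 was nearly absent from 7p-loss clone 1, with 1 and 0 counts, and had 39 to 71 in 7p-loss clones 2 and 3.

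SOX9 separated the clones most. It had 2886 and 2662 counts (143 and 94.9 CPM) in 7p-loss clone 1, 16 and 12 in 7p-loss clone 2, and 0 in both libraries of 7p-loss clone 3, where 0 counts allow up to 3. Counts in 8q-loss were 4 and 1 in clone 1 and 15 and 9 in clone 2, and in WT 116, 227, 190 and 81. SOX9 fell in 8q-loss by 4.38 on the log2 scale (SE 0.57, edgeR adjusted p = 0.00493), lower in 4 of 4 libraries and without overlap, as for 4.68% of all tested genes. The log2 fold change was −5.04 without clone 2 replicate 1, and −3.61 without clone 1 and −5.95 without clone 2, the last pair being settings added after the values were seen. The call was lost with WT replicates 3 and 4 as the only controls (adjusted p = 0.127), at a similar log2 fold change of −4.18, and when the replicate number entered the model. In 7p-loss the clones lay on both sides of WT and no difference was called (log2 fold change 2.51, SE 1.76, adjusted p = 0.580). SOX10 was at 579 to 687 CPM in 7p-loss and 407 to 695 in 8q-loss, overlapping the 469 to 651 of WT in both. The 7p-loss range includes clone 1, where SOX9 was highest. SOX9-AS1, which spans SOX9 on the other strand, had 0 to 3 counts in every A2058 library.

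NGFR was also highest in 7p-loss clone 1, with 524 and 173 CPM, against 50.7 and 15.6 in clone 2 and 16.1 and 5.62 in clone 3. In 8q-loss it was at 41.5 and 26.4 CPM in clone 1 and 123 and 67.4 in clone 2. Neither difference from WT was called (7p-loss 1.81, SE 1.14, adjusted p = 0.529, 8q-loss 0.80, SE 0.49, adjusted p = 0.537). AXL was at 121 to 440 CPM in 7p-loss and 139 to 286 in 8q-loss, overlapping WT in both (log2 fold changes 0.26, SE 0.32, adjusted p = 0.764, and 0.12, SE 0.27, adjusted p = 0.899). Replicate 1 of 7p-loss clone 1 held the highest AXL, NGFR and SOX9 values of all A2058 libraries, with TRPM2, PTPRE and SCUBE1 at 0 to 2 counts.

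AXL and NGFR also differed between libraries of the same clone. In all 5 7p-loss and 8q-loss clones replicate 1 was above replicate 2, 1.5 to 2.03 times for AXL and 1.57 to 3.25 times for NGFR, and WT replicate 3 was above WT replicate 4 by 1.92 and 2.85 times. The ratio was 0.91 and 1.06 for AXL and 0.87 and 1.27 for NGFR in the 1q-loss clones, and 0.87 and 0.94 between WT replicates 1 and 2. The labels do not say what the replicate numbers share, and the cause was not tested.

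**Figure D3:**
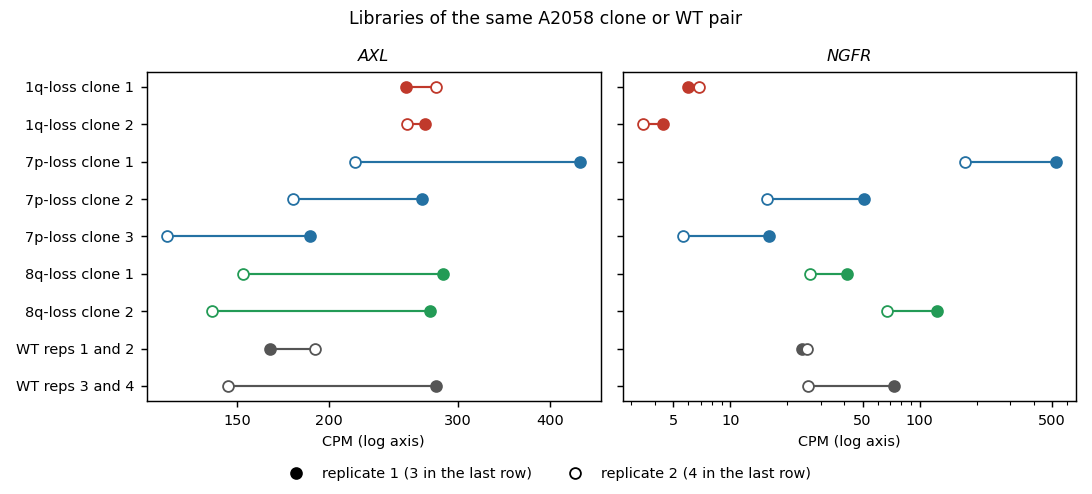
CPM (log axis) of AXL and NGFR in pairs of A2058 libraries, filled for the lower and open for the higher replicate number. The pairs of 7p-loss and 8q-loss clones and of WT replicates 3 and 4 are wide with the filled point to the right, and the pairs of 1q-loss clones and of WT replicates 1 and 2 are narrow.

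Outside A2058, no group had all of the first 6 genes at the level of A2058 1q-loss. FBLN2 was under 10 CPM in every library of the other lines, highest at 9.28 in AGS TK+ clone 1, and at 0 in all 12 MCF10A libraries of the WT, 1q-loss and hRas WT groups. SCUBE1 was at 3.62 to 11.1 CPM in HCT116 and under 1 elsewhere. TSPAN18 was at 11.9 to 25.4 CPM in HCT116 and at most 2.08 in any other line, so HCT116 came next after A2058 1q-loss for both, with TP53I11, which overlaps TSPAN18, at 49.8 to 116 CPM in the same libraries. How many of the TSPAN18 counts in HCT116 are reads of TP53I11 was not tested. TPBG was at 80.8 to 151 CPM over the 20 MCF10A libraries, close to the 133 to 171 of A2058 1q-loss, at 23.1 to 34.3 in HCT116, and at 0 counts in all 8 AGS libraries. PTPRE was at 17.5 to 32.7 CPM in MCF10A and 11.6 to 19.1 in AGS, against 62.1 to 76.7 in A2058 1q-loss. TRPM2 was highest in HCT116 (80.01 to 219 CPM), above the 43.7 to 54.0 of A2058 1q-loss, and at 0 or 1 count in every MCF10A library.

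Of the state markers, AXL was at 57.3 CPM or more in every library except those of AGS, where it was at 3.55 to 35.1. The 5 highest group means of AXL (A2058 1q-loss 265, 7p-loss 235, MCF10A hRas 1q-loss 218, A2058 8q-loss 213 and A2058 WT 196 CPM) had SDs of 12.2, 111, 86.1, 78.1 and 59.2, so these neighbours did not differ beyond their spread. NGFR was at 18.8 to 41.3 CPM in HCT116, 3.08 to 14.4 in A2780, at most 2.18 in MCF10A and at most 1.94 in AGS. SOX9 was highest in AGS, at 564 to 816 CPM, at 52.1 to 96.9 in HCT116, at 27.3 to 68.4 in MCF10A, and at 0.0445 to 12.3 in A2780. In AGS the 1q-loss range of SOX9 included the TK+ and WT values.

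**Figure D4:**
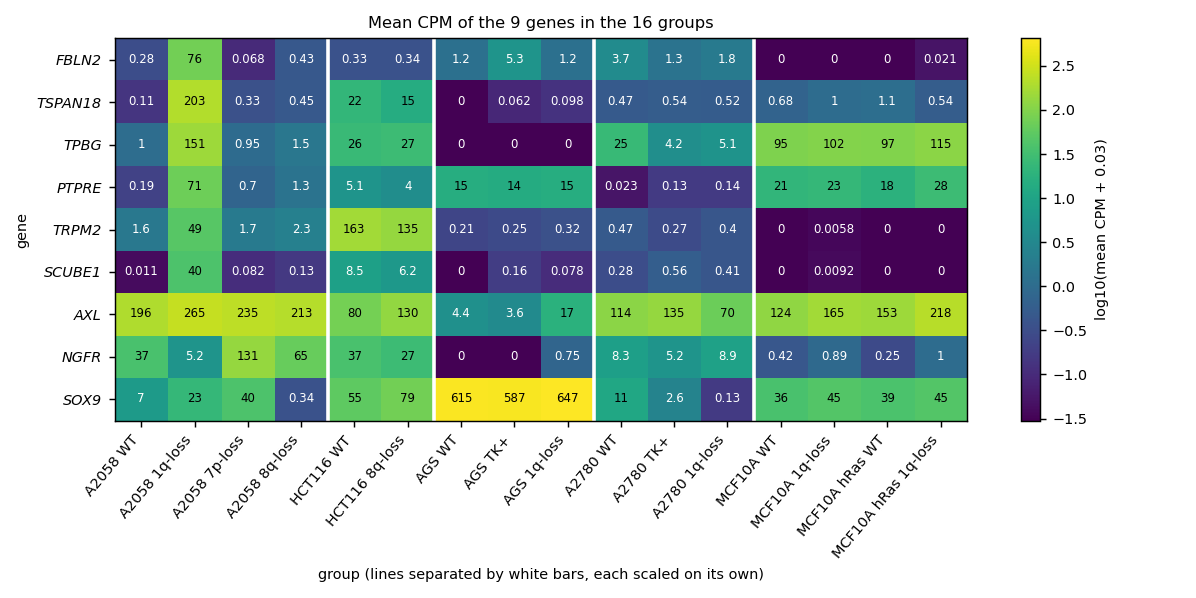
Mean CPM of the 9 genes in the 16 groups, as numbers and as colour (log10 scale with 0.03 added). The column of A2058 1q-loss is the only one in which FBLN2, TSPAN18, TPBG, PTPRE, TRPM2 and SCUBE1 all exceed 30 CPM, while TRPM2 is higher in HCT116 and SOX9 in AGS.

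Loss of 1q was also measured in AGS, A2780 and MCF10A, which allows the same genes to be followed in contrasts that did not choose them. In AGS, 4 of the 9 passed the filter and none was called, against 7.55% of all tested genes (edgeR, 1131 of 14988), 1 was at an unadjusted p under 0.05, and DESeq2 called 0. That gene was AXL, at 34.7 and 35.1 CPM in clones 1 and 4, 7.18, 5.14 and 4.15 in clones 11, 6 and 7, 3.55 and 3.61 in TK+ and 4.41 in WT (log2 fold change 2.17, SE 0.79, adjusted p = 0.123). The same clones 1 and 4 had the highest NGFR of the line, at 1.57 and 1.94 CPM, where WT and TK+ libraries had 0 counts. FBLN2 was not called in AGS (log2 fold change −1.71, SE 0.82, adjusted p = 0.223), and the fold rests on TK+ clone 1, at 9.28 CPM beside 1.24 in TK+ clone 2 and 1.15 in WT. Without that library it was −0.02 (adjusted p = 0.991).

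In A2780, 7 of the 9 passed the filter and 2 were called in 1q-loss against WT and TK+, both lower, against 11.8% of all tested genes called (1780 of 15044) and 5.88% called lower. SOX9 fell by 5.64 on the log2 scale (SE 0.56, adjusted p = 0.000214). It was at 10.2 and 12.3 CPM in WT, 2.38 and 2.86 in TK+, and 0.0445 to 0.211 in 1q-loss (median 0.132), 1 to 5 counts. With WT as the only controls the log2 fold change of SOX9 was −6.34. AXL fell by 0.83 (SE 0.13, adjusted p = 0.00291), from 110 to 149 CPM in WT and TK+ to 57.3 to 90.6 in 1q-loss (median 65.0), lower in 6 of 6 libraries. Neither gene overlapped its controls, and 6.66% of all tested genes were lower without overlap. TPBG was at 0.642 to 9.37 CPM in 1q-loss, 3.802 and 4.54 in TK+ and 24.8 and 26.0 in WT, and was not called (−1.54, SE 0.73, adjusted p = 0.201).

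TK+ cells of A2780 differed from WT in 4 of the 7 genes tested, all lower, against 11.2% of all tested genes called (1669 of 14888) and 6.05% called lower. TPBG fell by 2.60 (SE 0.14, adjusted p = 9.55e-08), SOX9 by 2.10 (SE 0.19, adjusted p = 1.03e-05), FBLN2 by 1.52 (SE 0.33, adjusted p = 0.0105) and NGFR by 0.66 (SE 0.19, adjusted p = 0.0482). NGFR was not called by DESeq2 (adjusted p = 0.201) or by edgeR among genes with a mean of at least 1 CPM (adjusted p = 0.0545). Its log2 fold change ranged from −0.88 to −0.47 over the alternatives, which include leaving out a library. AXL, not called (0.25, SE 0.10, adjusted p = 0.152), was called higher with the replicate number as a block (edgeR adjusted p = 0.0245). Its log2 fold change ranged from 0.10 to 0.39 over the alternatives. Each of these groups has 2 libraries, so leaving out a library leaves 1 in that arm, which is assumed to vary like the other arm. Only fold changes are given from those fits, and they say little about stability.

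In MCF10A 1q-loss against WT, 6 of the 9 passed and none was called, against 2.04% of all tested genes (edgeR, 319 of 15666), none was at an unadjusted p under 0.05, and DESeq2 called 0. AXL was at 127 to 223 CPM in 1q-loss and 102 and 147 in WT (log2 fold change 0.41, SE 0.20, adjusted p = 0.472), with all 4 clone means above the WT mean. With hRas, 6 of the 9 passed and none was called by edgeR, against 0.214% of all tested genes (34 of 15851), 2 were at an unadjusted p under 0.05, and DESeq2 called PTPRE. PTPRE was at 22.8 to 32.7 CPM in hRas 1q-loss and 17.9 and 18.6 in hRas WT, and 8.13% of all tested genes were likewise higher without overlap. The log2 fold change of PTPRE was 0.60 (SE 0.16, edgeR adjusted p = 0.183). The other gene was NGFR, at 0.436 to 2.18 CPM (11 to 58 counts) in hRas 1q-loss and 0.139 and 0.369 (3 and 8 counts) in hRas WT, higher in 8 of 8 libraries (log2 fold change 1.97, SE 0.75, adjusted p = 0.303). Without hRas, NGFR was at 0.320 to 1.16 CPM in 1q-loss and 0.223 and 0.607 in WT, with 7 of 8 libraries above both WT libraries (log2 fold change 1.05, SE 0.52, adjusted p = 0.465). AXL differed between hRas 1q-loss clones more than between libraries of a clone, at 302 and 324 CPM in clone 2 and 267 and 285 in clone 4, and 118 and 109 in clone 1. Expression of hRas itself (hRas WT against WT) came with no call among the 5 genes that passed, against 1.62% of all tested genes (237 of 14646), 1 at an unadjusted p under 0.05, and 0 by DESeq2. That gene was AXL (0.30, SE 0.13, adjusted p = 0.305), which was called without a filter on low counts (adjusted p = 0.0175).

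In HCT116 8q-loss against WT all 9 genes passed the filter. None was called, against 0.14% of all tested genes (edgeR, 22 of 15659), 1 was at an unadjusted p under 0.05, and DESeq2 called 0. AXL was at 160, 123, 116 and 121 CPM in 8q-loss and 96.5 and 64.5 in WT (log2 fold change 0.69, SE 0.28, adjusted p = 0.820). SOX9, which fell in A2058 8q-loss, was at 54.6 to 96.9 CPM in HCT116 8q-loss and 52.1 and 57.99 in WT (0.51, SE 0.30, adjusted p = 1.00). TRPM2 varied between clones and between WT libraries, at 219 and 157 CPM in 8q-loss clone 1, 85.5 and 80.01 in clone 2, and 211 and 115 in WT (log2 fold change −0.27, SE 0.41, not called). The difference between lines was not tested.

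**Figure D5:**
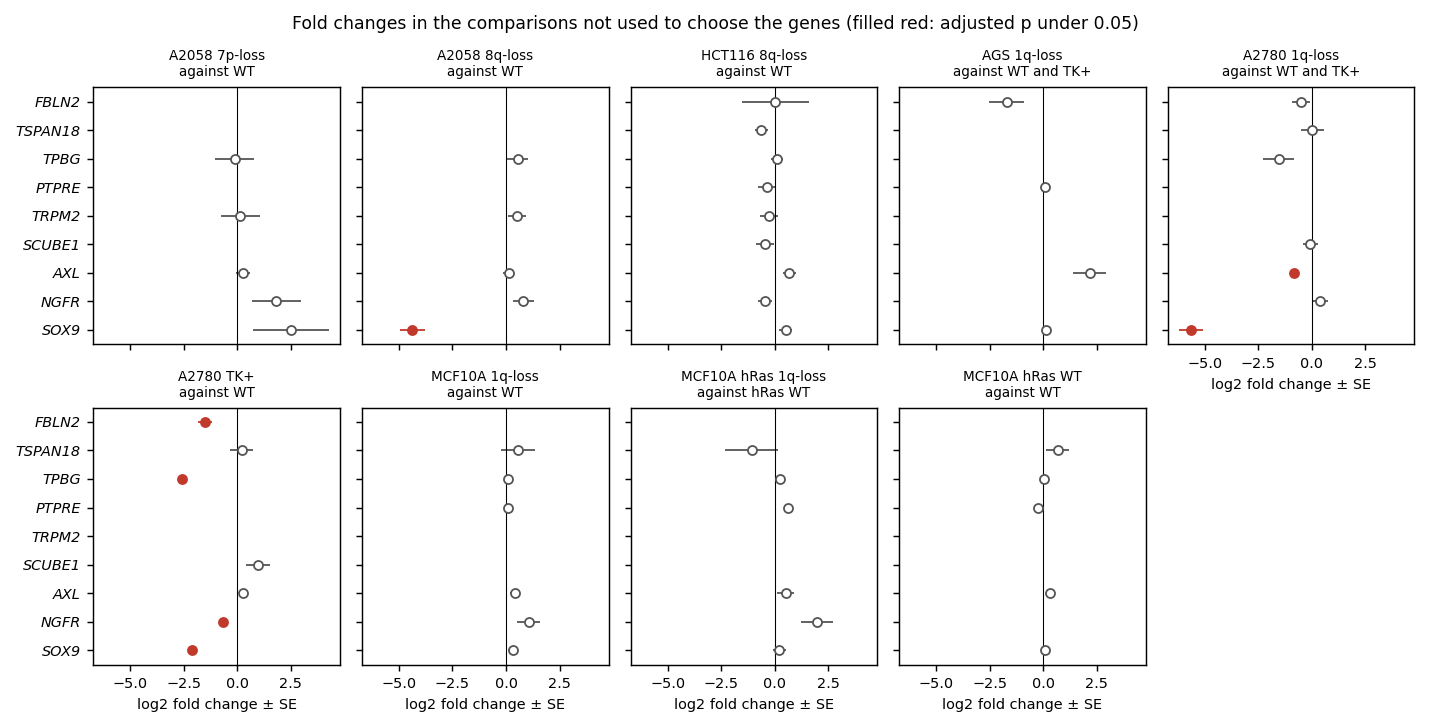
Log2 fold changes ± SE of the genes that passed the filter, in the 9 comparisons other than those within or with A2058 1q-loss, filled red where the adjusted p was under 0.05. The called values are SOX9 in A2058 8q-loss, SOX9 and AXL in A2780 1q-loss, and FBLN2, TPBG, NGFR and SOX9 in A2780 TK+, all to the left of 0.

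Over the 16 group means of log2 CPM, the genes most like each of the 9 were named as a description, among 14515 protein-coding genes; the points share lines, and A2780 its own annotation. AXL was most like DCBLD2 (r = 0.98) and CDC42EP3 (0.98), NGFR most like COPS6 (0.97), and SOX9 most like DTX2 (0.92) and LIFR (0.91). PTPRE was most like IL4R (0.96) and SERINC2 (0.95), and TPBG most like STC2 (0.94) and DYSF (0.94). TRPM2 was most like KLHL35 (0.96) and ASCC2 (0.96), and FBLN2 most like LPO (0.92) and OSCAR (0.91). TSPAN18 and SCUBE1 shared FOXF1 among their nearest (0.94 and 0.92), beside PTPRN2 (0.92) and CXCR4 (0.93). They were also the closest pair among the 9 (r = 0.90 over the 16 groups). The 16 groups include A2058 1q-loss, whose high values chose both genes, so nothing is read from this r.

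In the 14 A2058 libraries without 1q-loss, AXL and NGFR varied together (r = 0.77), as did NGFR and SOX9 (0.71), while TRPM2 ran against NGFR (−0.77) and SOX9 (−0.82). TSPAN18 and SCUBE1 again had the highest value (0.89), at counts of at most 40. Libraries of a clone are shared points in these correlations, and 7p-loss clone 1 holds the extremes of AXL, NGFR, SOX9 and TRPM2.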

How the data were processed

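Raw counts per gene were deposited by the authors, 1 table per library, made with HISAT2 2.0.5 and featureCounts 1.5.0-p3 per the submitters' processing notes, which name hg38. A2780 tables carry GRCh37 coordinates and were fitted on their own. The tables also hold a gene length, used as deposited for CPM per kb. Members and lists were chosen with earlier results of these data known. Groups follow the labels. In each comparison only its own libraries entered edgeR 4.0.16: filterByExpr (minimum count 10, minimum total 15), TMM, quasi-likelihood F-test, two-sided, Benjamini-Hochberg over all genes tested, called under 0.05. Standard errors were derived from log2 fold change and F statistic (change over √F). The scripts were tested on simulated data. The labels do not say whether replicates are separate cultures, so p-values measure the spread between these libraries, which may be technical. No pair of libraries was a duplicate: chi-square per degree of freedom was 3.63 to 82.6 over 31 pairs. Alternatives were DESeq2 1.42.0, RLE scaling, dropping the filter or asking for a mean of 1 CPM, leaving out libraries or clones, the replicate number as a block, clones summed and other controls. List genes named are, per list, the 3 with the largest rise and the 3 with the largest fall in A2058 1q-loss with a mean CPM of at least 1 in the higher group, and a few are left out for length. Per gene, the 2 protein-coding genes with the highest r over 16 groups are named. Some genes that these rules pick are not reported here. R was 4.3.3 and Python 3.11.15. Promoter sequences are from RefSeq.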

Additional observations from a re-analysis of the deposited data

Results flagged for a closer look

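Of 49 sets of 4 to 10 libraries examined for a library far from the rest, 2 were marked, where chance marks about 1 in 20. NGFR was at 524 CPM in A2058 7p-loss clone 1 replicate 1, the highest of 6 libraries, and at 73.1 CPM in A2058 WT replicate 3, the highest of 4.

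Of 53 pairs of contrasts examined, 7 had every library of a contrast on one side of its control mean and every library of the other contrast on the opposite side. These differences were not tested, and 5 of them rest on the A2058 contrast that chose the genes. As differences of mean log2 CPM changes, FBLN2 stood 8.98 higher in A2058 1q-loss than in AGS 1q-loss. The AGS side of this rests on TK+ clone 1 (9.28 CPM), since AGS 1q-loss clones 6 and 7 (1.95 and 2.37 CPM) lay above the other controls (1.15 and 1.24 CPM). TPBG stood 8.59, SOX9 6.49 and AXL 1.32 higher in A2058 1q-loss than in A2780 1q-loss. The A2780 side for TPBG rests on the WT libraries (24.8 and 26.0 CPM), since A2780 1q-loss clones 5 and 6 (4.80 to 9.37 CPM) lay above both TK+ libraries (3.802 and 4.54 CPM). NGFR stood −4.28 against MCF10A hRas 1q-loss. AXL stood 2.38 higher in AGS 1q-loss than in A2780 1q-loss, and −1.25 in A2780 1q-loss against MCF10A 1q-loss.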

How the results depend on the processing

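In A2058 8q-loss, where 1 gene was called, SOX9 and PTPRE (2) were called by DESeq2, without a filter and without 8q-loss clone 2 replicate 2 (range over left-out libraries 1 to 2). Without clone 1 the count was 2 (SOX9, TSPAN18) and without clone 2 it was 3 (SOX9, PTPRE, TRPM2). It was 0 with WT replicates 3 and 4 alone and with the replicate block (SOX9 adjusted p = 0.0530, log2 fold change −4.56). In 7p-loss it was 1 (SOX9) without clone 1, against 0, but that clone was left out after it was seen to lie above WT, so the call is not read as a result. Counts of 0 became 1 in AGS without a filter (AXL, adjusted p = 0.0489), 1 in MCF10A hRas 1q-loss by DESeq2 (PTPRE, 0.0410) and 1 in hRas WT against WT without a filter and with the replicate block (AXL, 0.0175 and 0.00567). Between the 1q-loss clones 0 became 2 without a filter (SOX9, NGFR) and 1 without clone 2 replicate 2 (range 0 to 1). In A2780 TK+, AXL was called with the replicate block (adjusted p = 0.0245). No comparison of 3 or more pairs had every same-numbered pair correlating over 0.1, so numbers were not taken to pair the libraries. Replicates 1 and 2 still deviated together across clones: their differences correlated at r = 0.33 to 0.42 among A2058 7p-loss clones and 0.49 between 8q-loss clones, at 0.24 to 0.50 with that of WT replicates 3 and 4, and at −0.08 to 0.02 with that of WT replicates 1 and 2. The 7p-loss and 8q-loss tests leave this shared deviation unmodelled, and the block, which gives WT replicates 3 and 4 levels of their own, moved all called genes from 139 to 1 there and from 308 to 39 in 8q-loss. All called genes ranged over alternatives from 1 to 898 in 7p-loss, 16 to 783 in 8q-loss, 0 to 133 in HCT116, 0 to 2127 in AGS, 725 to 2555 in A2780 1q-loss, 1094 to 3278 in A2780 TK+, 16 to 546 in MCF10A, 0 to 361 with hRas, 0 to 711 for hRas WT and 434 to 1897 between clones. The causes were not tested. FBLN2, TSPAN18, PTPRE and SCUBE1 did not pass the filter on low counts in A2058 7p-loss and 8q-loss, so no difference was tested there in the main analysis.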
